A study of Mus musculus with 6 samples.

Results

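The SOCS family (suppressors of cytokine signalling, Socs1 to Socs7 and Cish) was described in sorted adult mouse hematopoietic stem cells (HSCs) from mice homozygous for a PU.1 knock-in allele (PU.1 ki/ki, 3 arrays) and from wild-type mice (WT, 3 arrays). The 8 genes, of 18193 named on the array, were read by all probe sets whose platform gene symbol was a family name, which gave 24 of the 45037 probe sets analysed. A probe set is a group of short oligonucleotides that reads 1 transcript or a few. The family was chosen by the opposite differences of Socs2 (higher) and Socs3 (lower) between PU.1 ki/ki and WT on these same arrays, so the values of that comparison are a description and were not tested for any member. Cells of both genotypes came from 1 sorting gate for long-term HSCs, which kept Sca1+, cKit+ and CD150+ cells and removed cells with lineage markers or CD48. The age field and the sorting protocol give adult mice, no treatment is named, and the wild type carried no named allele. The record conflicts on this, since the free-text description of each sample speaks of embryos, at an earlier stage for the PU.1 ki/ki arrays than for the WT arrays. The titles, the source and the age field were followed here. PU.1, encoded by Spi1, is an ETS transcription factor of blood development, and the study's title names its autoregulation. The labels do not give the site of the knock-in, the sex of the mice or whether replicates were separate animals, so the spread between arrays may be technical.

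SOCS proteins are brakes on cytokine receptors. A cytokine activates Janus kinases (JAKs) on its receptor, these phosphorylate STAT factors, and the STATs switch on Cish, Socs1, Socs2 and Socs3, whose proteins return to the receptor through an SH2 domain and dampen it. Their carboxy-terminal SOCS box binds elongins B and C and a cullin, which mark bound proteins for destruction, and Socs1 and Socs3 also block the kinase itself. Socs4 to Socs7 have longer amino-terminal parts and are better known for acting on receptor tyrosine kinases. In HSCs the pathway carries signals such as thrombopoietin, through STAT5, and interferon.

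Intensities are linear values with a table minimum of 10, and differences are means of log2(intensity + 1) in PU.1 ki/ki minus WT, which understates the change of dim probe sets. Spi1 itself averaged 181 ± 27.2 in PU.1 ki/ki and 184 ± 22.6 in WT HSCs (SD, n = 3 each, limma adjusted p = 0.992), so it neither bears out nor contradicts the labels. The wild-type arrays were uneven. Of bright probe sets (median of the other 5 arrays at least 500), 0.117 to 0.215% lay at least 4-fold below that median in the PU.1 ki/ki samples, 1.2% on WT replicate 1, and 11.5 and 11.3% on WT replicates 2 and 3. For a WT array, 3 of those 5 arrays were PU.1 ki/ki, and whether its low values were lost signal was not tested. Values against WT replicate 1 alone are given with the SOCS members below and, for gate and marker genes, after their intensities. Those of the pathway genes named stand together after the pathway results. In the gate, Slamf1 (CD150) read 696, 1525 and 170 in PU.1 ki/ki, against 440, 54 and 42 in WT HSCs, and Cd48, which the gate removes, read 230, 90 and 290 in PU.1 ki/ki, against 704, 193 and 75 in WT HSCs. On the Slamf1 probe set used here (difference 2.48) WT replicates 2 and 3 were thus low, while the other 2 Slamf1 probe sets differed by 0.19 and 0.77. Cd48 was highest on WT replicate 1. Some markers of other cell types, read by 1 probe set per gene, had groups without overlap. Over all 18193 genes 12.8% were without overlap, 6.44% higher and 6.36% lower, and 52.8% of all probe sets were higher. The marker counts that follow are descriptions beside these shares. Of 9 macrophage genes 6 were higher and 3 lower, and the complement genes C1qb and C1qc had no overlap. C1qb read 567, 119 and 73 in PU.1 ki/ki, against the table minimum of 10 on all 3 WT arrays (3.96). The suffix of its probe set marks probes that can cross-hybridise to other transcripts, and its other probe sets differed by 0.15 and 1.30. C1qc read 226, 54 and 41 in PU.1 ki/ki, against 13, 35 and 29 in WT HSCs. The complement gene C1qa overlapped, with 39, 47 and 19 in PU.1 ki/ki, against 33, 26 and 18 in WT HSCs (0.38). The summed intensity of the macrophage list was 4665 to 5866 in PU.1 ki/ki and 4399 to 5867 in WT. That sum is mostly Lyz2 and does not show the separation of C1qb and C1qc. The defining genes of the list, Adgre1 and Itgam, read under 50 on all 6 arrays. Of 6 megakaryocyte genes 5 were higher and 1 lower, with sums of 1853 to 3813 in PU.1 ki/ki and 1298 to 1889 in WT, and Vwf, also known in HSCs, had no overlap (815, 1435 and 1357 in PU.1 ki/ki, against 617, 490 and 298 in WT). Of 5 erythroid genes 2 were higher and 3 lower (sums 282 to 547 in PU.1 ki/ki and 230 to 802 in WT), with 1 gene without overlap in each direction. The erythroid factor Klf1 read 118, 123 and 159 in PU.1 ki/ki, against 42, 21 and 11 in WT HSCs. The globin gene Hba-a1 separated the other way, with 36, 47 and 36 in PU.1 ki/ki, against 65, 85 and 48 in WT HSCs (-0.69). Of 8 T and NK cell genes 2 were higher and 6 lower (sums 368 to 481 in PU.1 ki/ki and 503 to 765 in WT), and Cd3e read 43, 32 and 58 in PU.1 ki/ki, against 76, 98 and 150 in WT HSCs, while Cd3g was under 50 on all arrays. The 2 higher genes were Cd4 and Cd3d, both with overlap. Cd4 read 144, 53 and 100 in PU.1 ki/ki, against 58, 18 and 50 in WT HSCs (1.26), and Cd3d differed by 0.23. Of 7 mast cell and basophil genes 1 was higher and 6 lower (sums 2314 to 3580 in PU.1 ki/ki and 1793 to 2694 in WT, mostly Gata2), and Mcpt8 read 24, 29 and 22 in PU.1 ki/ki, against 176, 38 and 90 in WT HSCs. Ms4a2 of that list was also lower without overlap, by 0.61 on the log2 scale. Of 9 neutrophil genes 1 was higher and 8 lower (sums 13932 to 20905 in PU.1 ki/ki and 18034 to 24026 in WT), and S100a8 had no overlap (-0.45). Of 7 B cell genes all were lower (sums 391 to 472 in PU.1 ki/ki and 366 to 895 in WT). Cd79a, Ms4a1 and Ebf1 of that list read under 50 on all 6 arrays. Cd79a had no overlap, with 21, 27 and 26 in PU.1 ki/ki, against 32, 42 and 28 in WT HSCs (-0.44). Of 7 endothelial genes 4 were higher and 3 lower (sums 676 to 734 in PU.1 ki/ki and 417 to 1169 in WT). The part of such cells in the results on the SOCS family and its pathway was not tested, and in bulk RNA fewer cells of a type and less RNA per cell cannot be told apart. Against WT replicate 1 alone the difference was 0.36 for Slamf1, -1.95 for Cd48, 3.96 for C1qb, 2.53 for C1qc and -0.01 for C1qa. It was 0.92 for Vwf, 1.63 for Klf1, -0.71 for Hba-a1, -0.80 for Cd3e, 0.65 for Cd4 and -0.07 for Cd3d. For Mcpt8 it was -2.78, for Ms4a2 -0.79, for S100a8 -0.45 and for Cd79a -0.37.

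Socs2, which is induced by STAT5 and restrains growth hormone signalling, had the largest difference of the family. Its probe set 1449109_at read 546, 363 and 305 on PU.1 ki/ki replicates 1, 2 and 3, against 20, 51 and 33 on the WT arrays. Every PU.1 ki/ki array was thus well above every WT array, including WT replicate 1, which had the lowest value. The means were 405 ± 126 and 34.7 ± 15.6 (SD, n = 3 each), a difference of 3.56 on the log2 scale, or 11.8-fold. Against WT replicate 1 alone, a single WT array, the difference was 4.23. The part of the uneven WT arrays in the Socs2 difference was not tested.

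The other Socs2 probe sets differed much less. Probe set 1418507_s_at, whose suffix marks probes that can match more than 1 transcript, read 445, 573 and 178 in PU.1 ki/ki, against 111, 76 and 325 in WT HSCs (difference 1.34). Here the groups overlapped, because PU.1 ki/ki replicate 3 lay below WT replicate 3. On WT replicate 3 the Socs2 probe sets went apart most plainly: 1449109_at was near its group's other arrays there and 1418507_s_at was at the high end. Probe set 1446085_at read 25, 24 and 40 in PU.1 ki/ki, against 22, 13 and 15 in WT HSCs, without overlap but close to the table minimum (0.79). The last 3 Socs2 probe sets read 11 to 32 in PU.1 ki/ki and 10 to 26 in WT HSCs, with differences of 0.06 to 0.44 and overlapping groups. All 6 had a positive difference, of which that of 1438470_at (0.06) turned to -0.05 after each array was centred on its median and to -0.02 against WT replicate 1 alone. Against that array the difference of 1418507_s_at was 1.68 and that of 1446085_at 0.38.

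Socs3, the STAT3-induced brake on receptors that use gp130 and on the G-CSF receptor, differed in the other direction. Its probe set 1456212_x_at read 13, 31 and 12 in PU.1 ki/ki HSCs, against 820, 73 and 60 on WT replicates 1, 2 and 3. The groups did not overlap, but 1 array, WT replicate 1, was far above the rest, and PU.1 ki/ki replicates 1 and 3 were close to the table minimum. The difference was -3.10, and it was -1.90 without WT replicate 1 and -5.51 against that array alone. The suffix of this probe set marks probes that can cross-hybridise to other transcripts. Probe set 1416576_at, which has no such suffix, read 15, 56 and 19 in PU.1 ki/ki, against 145, 150 and 50 in WT HSCs (-1.98, and -2.47 against WT replicate 1 alone). The groups overlapped on it, since PU.1 ki/ki replicate 2 was above WT replicate 3. Probe set 1455899_x_at read 40, 64 and 17 in PU.1 ki/ki, against 163, 69 and 34 in WT HSCs (-1.02, -0.45 without WT replicate 1 and -2.17 against it alone). PU.1 ki/ki replicate 2 was the highest of its group on all 3 Socs3 probe sets. All 3 differences stayed negative under every scaling and with any single array left out. For 1456212_x_at, on which the groups did not overlap, leaving out an array could not change the sign.

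Socs1, the brake on interferon receptors, had 1 probe set, 1450446_a_at, which was dim. It read 35, 40 and 42 in PU.1 ki/ki, against 52, 77 and 60 in WT HSCs, so the groups did not overlap (39.0 ± 3.61 and 63.0 ± 12.8, SD, n = 3 each, difference -0.66). Against WT replicate 1 alone the difference was -0.41. Cish, the founding STAT5-induced member, also had 1 probe set, 1448724_at, and showed no separation. It read 262, 575 and 132 in PU.1 ki/ki, against 200, 529 and 397 in WT HSCs. The PU.1 ki/ki arrays alone spanned 4.36-fold and enclosed all WT values, and the difference of -0.36 was 0.44 against WT replicate 1 alone. Like Cish, 4 of the 6 Socs2 probe sets overlapped between groups.

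**Figure D1:**
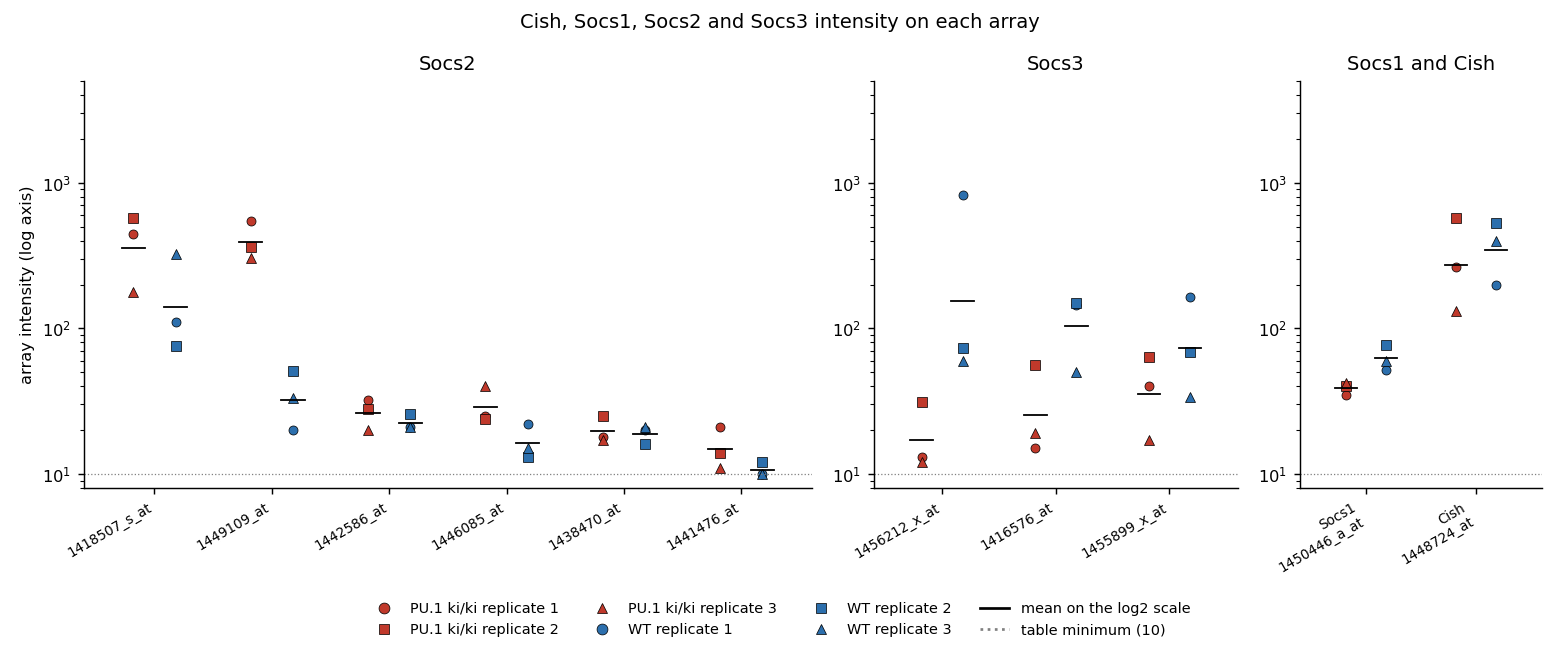
Intensity of each Socs2, Socs3, Socs1 and Cish probe set on each array (log axis), with PU.1 ki/ki to the left in red and WT to the right in blue, 1 symbol per replicate. Bars are the means on the log2 scale and the dotted line is the table minimum of 10. On Socs2 1449109_at all red points (305 to 546) lie above the blue ones (20 to 51), on Socs3 1456212_x_at all lie below, with WT replicate 1 at 820, and on Cish the groups overlap.

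RefSeq promoter windows (GRCm38.p6) were at hand for 4 members, Socs1, Socs3, Socs4 and Cish. They were searched on both strands, over the 250 bases before the annotated start, for the STAT site TTCNNNGAA and for AGGAAG, a sequence bound by ETS factors such as PU.1. The windows of the 3 STAT-induced genes among them are shown because these are the genes the feedback loop acts on, with the STAT match in capitals:
Socs3, chr11:117969367-117969616, minus strand: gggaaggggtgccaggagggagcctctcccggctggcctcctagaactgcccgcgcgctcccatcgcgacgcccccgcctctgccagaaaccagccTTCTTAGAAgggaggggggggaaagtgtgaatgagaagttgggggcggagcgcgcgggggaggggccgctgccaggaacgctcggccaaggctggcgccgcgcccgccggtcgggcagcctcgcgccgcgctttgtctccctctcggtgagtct
Cish, chr9:107296409-107296658, plus strand: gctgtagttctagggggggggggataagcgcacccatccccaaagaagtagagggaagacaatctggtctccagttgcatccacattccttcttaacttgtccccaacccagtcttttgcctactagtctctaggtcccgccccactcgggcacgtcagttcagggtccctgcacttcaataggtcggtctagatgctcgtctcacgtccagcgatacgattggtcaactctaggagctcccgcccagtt
Socs1, chr16:10785537-10785786, minus strand: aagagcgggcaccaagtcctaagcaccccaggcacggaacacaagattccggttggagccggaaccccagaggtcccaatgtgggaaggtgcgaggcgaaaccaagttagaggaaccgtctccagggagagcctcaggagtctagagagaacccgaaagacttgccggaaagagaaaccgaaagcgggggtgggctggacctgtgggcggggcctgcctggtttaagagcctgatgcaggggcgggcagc

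Of the 4 windows, 1, that of Socs3, held TTCNNNGAA, at 154 to 146 bases before the start. Over 32851 RefSeq promoter windows of the same length, 7.02% held it. AGGAAG was in 0 of the 4 windows and in 29.5% of all windows. A match describes letters and not binding, and its absence says only that these letters are not in this window.

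The members with long amino-terminal parts mostly overlapped between genotypes. Socs6, which binds Kit and the insulin receptor pathway, had 1 probe set without overlap, 1452764_at. It read 117, 94 and 71 in PU.1 ki/ki, against 31, 43 and 21 in WT HSCs (94.0 ± 23.0 and 31.7 ± 11.0, SD, n = 3 each, difference 1.57, and 1.54 against WT replicate 1 alone). The other probe sets of Socs6 did not share that separation. Probe set 1450129_a_at read 67, 52 and 260 in PU.1 ki/ki, against 333, 13 and 31 in WT HSCs. Its WT values spanned 25.6-fold, and the difference of 0.88 became -1.77 against WT replicate 1 alone. Probe set 1435492_at had the same mean in both groups (46.0 ± 16.5 and 46.0 ± 22.9, SD, n = 3 each).

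Socs7, an adaptor linked to insulin signalling, was read by the brightest probe set of the family, 1455402_at, with 3029, 1936 and 2102 in PU.1 ki/ki, against 2268, 2661 and 1432 in WT HSCs. The ranges overlapped in part, with PU.1 ki/ki replicate 1 the highest and WT replicate 3 the lowest array, and the difference was 0.17 (0.03 against WT replicate 1 alone). Its probe set 1420766_at read 80, 164 and 90 in PU.1 ki/ki, against 18, 103 and 18 in WT HSCs (1.67). WT replicate 2 was the array that overlapped there, at 103, and the difference was 2.49 both without it and against WT replicate 1 alone. The other Socs7 probe sets, 1438492_at and 1434834_at, overlapped between groups and differed by 0.62 and 0.08. For 1434834_at the difference was -0.10 after further quantile normalization and -0.03 after median centring.

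Socs4, which acts on the EGF receptor, was the member whose probe sets disagreed in sign. Probe sets 1421275_s_at and 1421274_at differed by 0.27 and 0.11 and 1421273_at and 1455142_at by -0.60 and -0.41, and all 4 overlapped. Against WT replicate 1 alone 1421274_at turned to -0.43 and 1455142_at to 0.17, while 1421275_s_at was at 0.38 and 1421273_at at -0.38. Probe set 1421275_s_at was the steadiest, with 364, 250 and 324 in PU.1 ki/ki, against 237, 251 and 284 in WT HSCs. On 1421274_at WT replicates 2 and 3 lay at opposite ends, at 16 and 159, around PU.1 ki/ki values of 58 to 77. Socs5, also a regulator of the EGF receptor, read 901, 182 and 131 on 1423349_at in PU.1 ki/ki, against 305, 161 and 729 in WT HSCs (-0.24, and -0.13 against WT replicate 1 alone). On 1423350_at it read 306, 249 and 259 in PU.1 ki/ki, against 159, 450 and 285 in WT HSCs (-0.02, and 0.76 against that array). PU.1 ki/ki replicate 1 stood out on 1423349_at and not on 1423350_at, so the high value was not shared by the gene's probe sets.

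**Figure D2:**
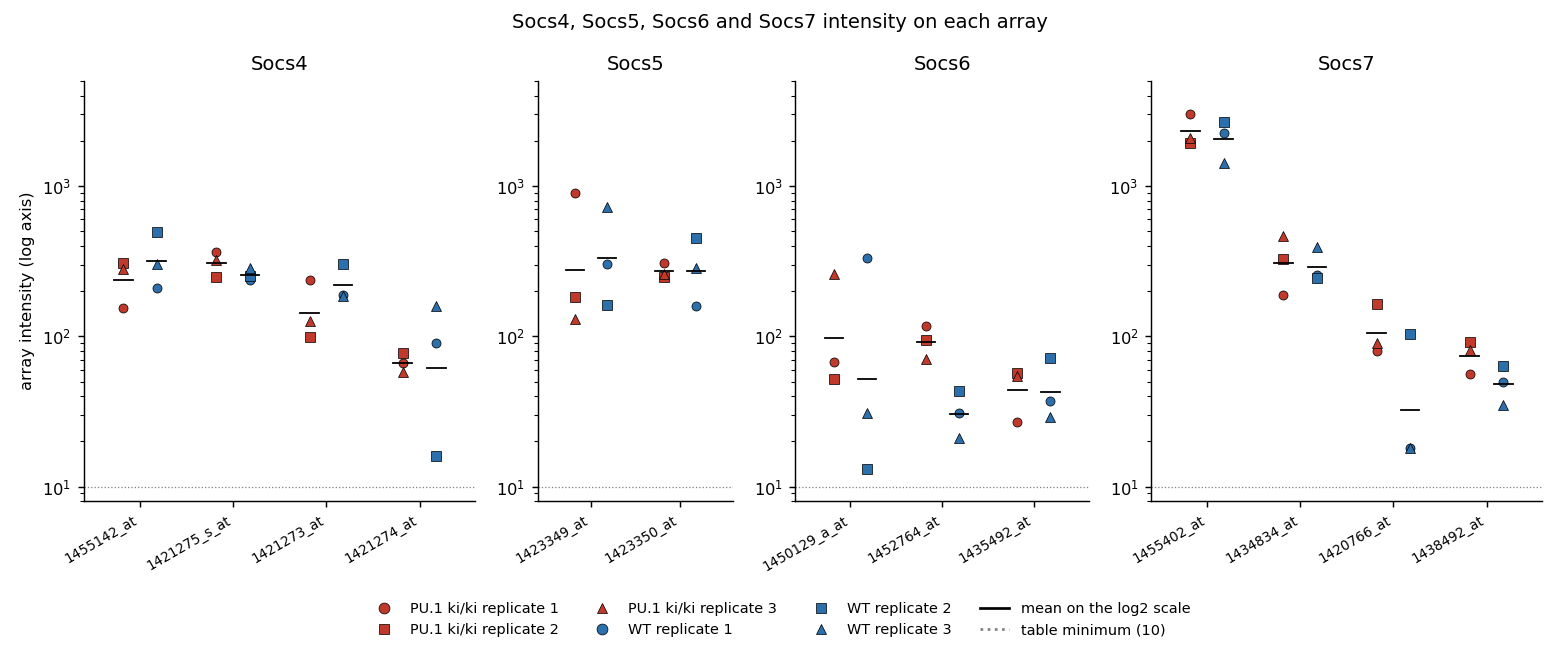
Intensity of each Socs4, Socs5, Socs6 and Socs7 probe set on each array (log axis), PU.1 ki/ki to the left in red and WT to the right in blue, 1 symbol per replicate, bars for the means on the log2 scale. Of these 13 probe sets, Socs6 1452764_at (71 to 117 in PU.1 ki/ki, 21 to 43 in WT) is the 1 without overlap.

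Counted over the family, 15 of 24 probe sets read higher in PU.1 ki/ki HSCs and 9 lower, with a median difference of 0.09, against 52.8% higher and a median of 0.002 over all probe sets. After centring each array on its median 11 of the 24 were higher, and 12 after further quantile normalization. Without overlap were 3 higher (Socs2 1449109_at, Socs2 1446085_at and Socs6 1452764_at) and 2 lower (Socs3 1456212_x_at and Socs1 1450446_a_at), where over all probe sets 6.62% were without overlap and higher and 5.46% without overlap and lower. A difference of more than 1 on the log2 scale was seen in 4 higher and 3 lower, against 8.84% and 2.62% of all probe sets. Against WT replicate 1 alone 6 of the 24 differences changed sign. These comparisons were the ones by which the family was picked, so nothing is read from their counts. Over the whole table limma called 0 of 45037 probe sets at an adjusted p under 0.05, with 3731 (8.28%) at an unadjusted p under 0.05, 4.6% higher and 3.68% lower.

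The probe sets of a gene agreed in sign for Socs2 (6 of 6 higher), Socs7 (4 of 4 higher), Socs6 (3 of 3 higher), Socs3 (3 of 3 lower) and Socs5 (2 of 2 lower), and not for Socs4. With median centring, Socs2, Socs6 and Socs7 each had 1 probe set that turned. Socs6 1435492_at also turned in most fits with a single array left out. Of Socs7, 1434834_at turned without PU.1 ki/ki replicate 3, WT replicate 1 or WT replicate 2. Its probe set 1455402_at turned without PU.1 ki/ki replicate 1 or WT replicate 3. Both Socs5 probe sets turned positive without PU.1 ki/ki replicate 2, PU.1 ki/ki replicate 3 or WT replicate 3. Socs2 and Socs3 were chosen by these same differences, so nothing is read from their agreement beside the shares that follow. Among all genes with 6 probe sets, 9.84% (24 of 244) had 1 sign throughout, and of those with 4, 3 and 2 probe sets the shares were 19.2%, 33.0% and 54.1%. WT values spanned a wider range than PU.1 ki/ki values in 15 of 24 SOCS probe sets, and in 71.7% of all probe sets.

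**Figure D3:**
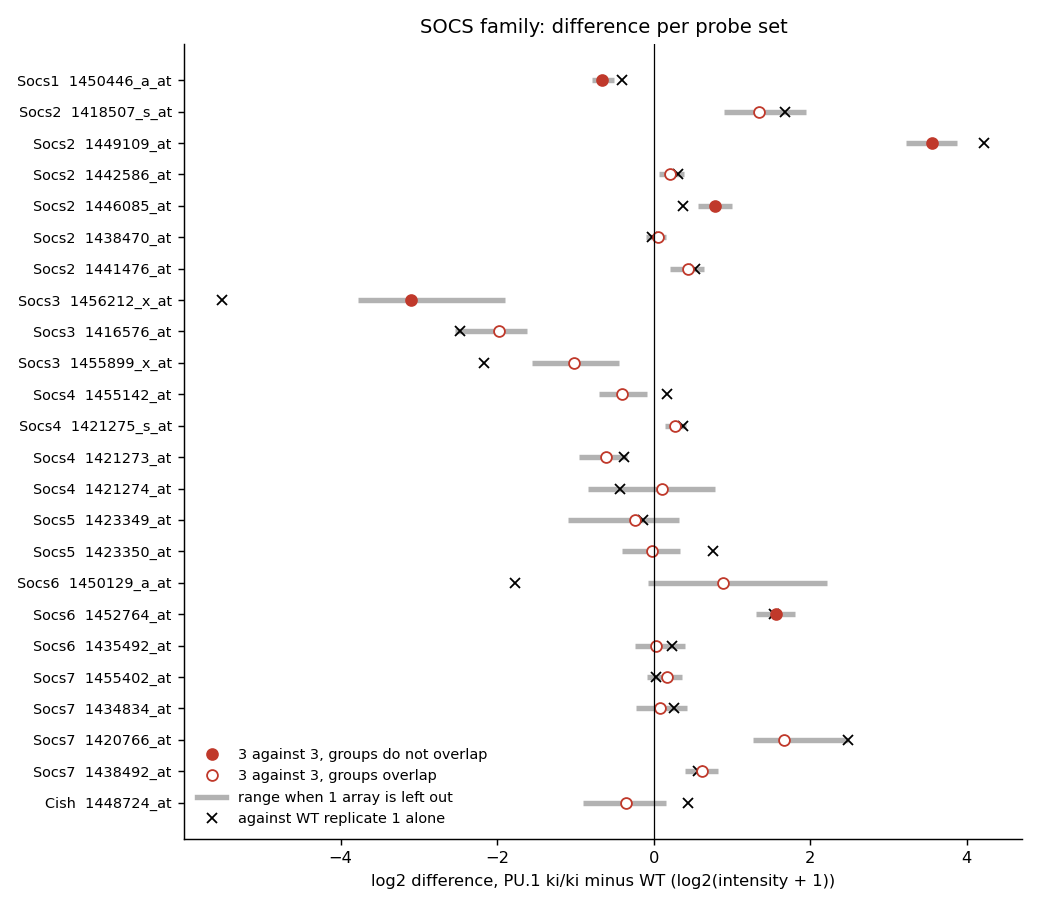
Log2 difference (PU.1 ki/ki minus WT) of each SOCS probe set, with filled points where the groups do not overlap. Grey bars give the range when 1 array is left out and crosses the value against WT replicate 1 alone. Socs2 1449109_at (3.23 to 3.88) and all 3 Socs3 probe sets keep their side of 0, while those of Cish, Socs5 and Socs6 1450129_a_at, among others, lie on both sides.

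The genes whose pattern over the 6 arrays was most like that of Socs2 1449109_at, among 19024 named probe sets above the median intensity, were the RNA-binding protein Rbm12 (Pearson r = 0.997), Gatc, of mitochondrial tRNA amidation (0.993), and the interferon-induced Ifi35 (0.991). Rbm12 read 908, 766 and 604 in PU.1 ki/ki, against 179, 271 and 235 in WT HSCs, in the same order of arrays as Socs2. Ifi35 read 1571, 1349 and 1301 in PU.1 ki/ki, against 523, 615 and 641 in WT HSCs. The other 5 Socs2 probe sets had r of 0.05 to 0.76 with 1449109_at. For Socs3 1456212_x_at the most alike were Klf9, a Krüppel-like transcription factor (r = 0.992), Banf1, a chromatin-binding protein of the nuclear envelope (0.988), and the apolipoprotein Apoa1 (0.987). Klf9 read 10, 34 and 10 in PU.1 ki/ki, against 429, 50 and 38 in WT HSCs, so this likeness rests largely on WT replicate 1. The other Socs3 probe sets had r of 0.83 and 0.86 with it. The 6 points fall into 2 genotypes and the search covered many probe sets, so these values are descriptions only.

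The rest of the pathway was examined with 1 probe set per gene, the one with the highest mean. Over 126 genes in 9 lists, 73 were higher and 53 lower, with a median of 0.12 against 0.01 over all 18193 genes. Of these 126, 0 passed (limma, Benjamini-Hochberg over all probe sets, lowest adjusted p = 0.463), 10 had an unadjusted p under 0.05, or 7.94%, against 8.66% of all genes, and 18 (14.3%) had no overlap, against 12.8% of all genes (6.44% higher and 6.36% lower). In each list named below 0 genes passed in either direction.

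Of the 4 JAK kinases all were higher (median 0.24) and 1 had no overlap. That median was -0.06 without PU.1 ki/ki replicate 3 and 0.68 without PU.1 ki/ki replicate 2. Jak1, used by most cytokine receptors, read 1455, 1315 and 2143 in PU.1 ki/ki, against 672, 1121 and 182 in WT HSCs (1.63 ± 0.72 SE, limma adjusted p = 0.629). WT replicate 3 was lowest by far, and 1 of the 2 other Jak1 probe sets had the opposite sign. Jak2, the kinase of thrombopoietin and growth hormone receptors, averaged 646 ± 229 in PU.1 ki/ki and 619 ± 134 in WT HSCs (SD, n = 3 each; 0.02). Of 6 STAT factors measured here 5 were higher and 1 lower (median 0.64, 0.25 against WT replicate 1 alone and 0.21 without WT replicate 3). Stat5a and Stat5b, the inducers of Cish and Socs2, had overlapping groups. Stat5a averaged 1833 ± 711 in PU.1 ki/ki and 1327 ± 434 in WT HSCs (0.44), but its other probe set differed by -0.60, and Stat5b averaged 325 ± 54.9 in PU.1 ki/ki and 423 ± 88.0 in WT HSCs (-0.37, other probe set -0.23). Stat3, the inducer of Socs3, read 1322, 1548 and 787 in PU.1 ki/ki, against 691, 1365 and 474 in WT HSCs (0.62, adjusted p = 0.742 in limma), on the opposite side to Socs3. Stat4, of IL-12 signalling, had no overlap, with 477, 408 and 857 in PU.1 ki/ki, against 290, 385 and 49 in WT HSCs (1.63, limma adjusted p = 0.661).

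Of 28 receptors that signal through JAKs and were measured here, 17 were higher and 11 lower (median 0.19), with 3 higher and 1 lower without overlap. Higher were the GM-CSF receptor chain Csf2ra (523, 321 and 244 in PU.1 ki/ki, against 202, 60 and 202 in WT HSCs, 1.35, limma adjusted p = 0.627) and the IL-3 receptor chain Csf2rb2 (40, 69 and 32 in PU.1 ki/ki, against 26, 20 and 10 in WT HSCs, 1.31, adjusted p = 0.580). On Csf2rb2 1 WT array was at the table minimum. The other Csf2ra probe set differed by 0.22. Il10ra, a receptor chain for IL-10, was lower, with 39, 28 and 51 in PU.1 ki/ki, against 99, 79 and 191 in WT HSCs (-1.56 ± 0.41 SE, limma adjusted p = 0.508), and its further 2 probe sets lay on the same side (-0.87 and -0.79). The receptors best known as targets of the inducible members showed no separation on the probe set used. Ghr, the growth hormone receptor restrained by Socs2, averaged 239 ± 201 in PU.1 ki/ki and 249 ± 130 in WT HSCs (-0.22), and its other probe sets disagreed (-0.93 and 1.28). Csf3r and Il6st, the G-CSF receptor and gp130 that Socs3 acts on, differed by 0.33 and 0.32, each with overlap. The other Il6st probe sets differed by 1.33, 0.32 and -0.64.

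Of 7 receptor tyrosine kinases that SOCS proteins bind, 4 were higher and 3 lower (median 0.53). That median was -0.05 without WT replicate 3, 0.03 without PU.1 ki/ki replicate 3 and 1.35 without WT replicate 2. Met, the hepatocyte growth factor receptor, read 97, 200 and 149 in PU.1 ki/ki, against 73, 55 and 13 in WT HSCs (1.89, limma adjusted p = 0.598), and its other probe set had the opposite sign. Egfr read 74, 53 and 52 in PU.1 ki/ki, against 87, 134 and 156 in WT HSCs (-1.04, limma adjusted p = 0.509), and its 6 other probe sets differed by -0.56 to 0.26. Igf1r had no overlap, with 2590, 1545 and 1381 in PU.1 ki/ki, against 1304, 800 and 38 in WT HSCs (2.36). WT replicate 3 set most of its size, and the difference was 0.79 without that array. The other Igf1r probe sets differed by 0.72, -0.56, 0.19 and 1.07. Kit, which the gate selects for and Socs6 binds, read 617, 452 and 1368 in PU.1 ki/ki, against 374, 1622 and 1001 in WT HSCs (-0.22). The other Kit probe set differed by 0.67.

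The machinery that the SOCS box recruits was measured by 10 genes, of which 7 were higher and 3 lower (median 0.53). Elob and Eloc, the elongins bound by every SOCS box, differed by 0.21 and -0.09. The other Elob probe set differed by -0.42 and those of Eloc by -0.33, 0.15 and 1.06. Cul5, the cullin of SOCS complexes, read 993, 1481 and 797 in PU.1 ki/ki, against 1628, 76 and 29 in WT HSCs (2.76). Its low values were on WT replicates 2 and 3, the arrays with most bright probe sets read low, and WT replicate 1 was above all PU.1 ki/ki arrays. The other Cul5 probe sets differed by 0.20 and 0.34. Dcun1d1, a cullin neddylation factor, had no overlap, with 3406, 2232 and 2700 in PU.1 ki/ki, against 723, 639 and 36 in WT HSCs (3.41, limma adjusted p = 0.595, 2.01 without WT replicate 3), and was low on all 3 WT arrays. Its other probe sets differed by 0.94, 0.80, 1.44 and 1.46. Against WT replicate 1 alone the list's median was -0.08. Of 29 other SOCS box proteins 12 were higher and 17 lower (median -0.13). Spsb2 read 219, 111 and 120 in PU.1 ki/ki, against 95, 53 and 45 in WT HSCs (1.21, limma adjusted p = 0.568). Asb3 read 74, 58 and 62 in PU.1 ki/ki, against 158, 78 and 323 in WT HSCs (-1.29, limma adjusted p = 0.613). The other Spsb2 probe set differed by 0.41 and that of Asb3 by -0.34.

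Other attenuators of cytokine signalling (phosphatases, PIAS, Cbl and Sprouty proteins) were higher in 13 and lower in 7 of 20 genes (median 0.27). Cbl, a ubiquitin ligase that turns over activated receptors, was the 1 without overlap. It read 393, 441 and 824 in PU.1 ki/ki, against 280, 253 and 254 in WT HSCs (0.99 ± 0.31 SE, limma adjusted p = 0.551), and its further 2 probe sets lay on the same side (1.15 and 0.84). Cblb, its relative, differed by -0.86 with overlap and with both other probe sets of opposite sign. Usp18, which restrains the type I interferon receptor, averaged 72.7 ± 13.6 in PU.1 ki/ki and 112 ± 46.2 in WT HSCs (SD, n = 3 each; -0.56).

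Target genes of the STATs were set beside the inducible SOCS members. Of 12 STAT5 targets 6 were higher and 6 lower (median -0.02, -0.19 against WT replicate 1 alone and 0.24 without that array). Pim1, a kinase induced by STAT5 and STAT3, read 1282, 1170 and 1845 in PU.1 ki/ki, against 1225, 635 and 1081 in WT HSCs (0.57, limma adjusted p = 0.676). Lif, a cytokine, was the member without overlap, at 22, 17 and 21 in PU.1 ki/ki, against 36, 23 and 50 in WT HSCs (-0.77, limma adjusted p = 0.608). Its other probe set differed by -0.10. Of 13 STAT3 targets 7 were higher and 6 lower (median 0.05). The C/EBP factors of acute-phase and myeloid responses were the 2 without overlap, both lower. Cebpd read 108, 167 and 107 in PU.1 ki/ki, against 481, 346 and 261 in WT HSCs (-1.49 ± 0.31 SE, limma adjusted p = 0.463). Cebpb read 172, 97 and 134 in PU.1 ki/ki, against 229, 485 and 323 in WT HSCs (-1.33 ± 0.36 SE, limma adjusted p = 0.509). The other probe set of Cebpd differed by -0.04 and that of Cebpb by -0.62.

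WT replicate 1, the WT array with the fewest bright probe sets read low, gave smaller differences for several of the genes above. Against it alone the difference was 0.92 for Stat4, 0.77 for Csf2ra, 0.76 for Csf2rb2, 0.96 for Met, 0.44 for Igf1r, -0.56 for Egfr, 1.92 for Dcun1d1, 0.58 for Spsb2, 0.20 for Pim1, -0.80 for Cebpb and -0.15 for Usp18. It changed sign for Stat5a (-0.06), Jak2 (-0.20), Il6st (-0.45), Kit (0.95), Elob (-0.08), Cul5 (-0.63) and Cblb (0.25). It was 1.25 for Jak1, -1.35 for Il10ra, -1.28 for Asb3, 0.90 for Cbl and -1.94 for Cebpd. For the remaining pathway genes named it was -0.003 for Stat5b, 0.76 for Stat3, -0.37 for Ghr, 0.73 for Csf3r, -0.28 for Eloc and -0.83 for Lif.

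**Figure D4:**
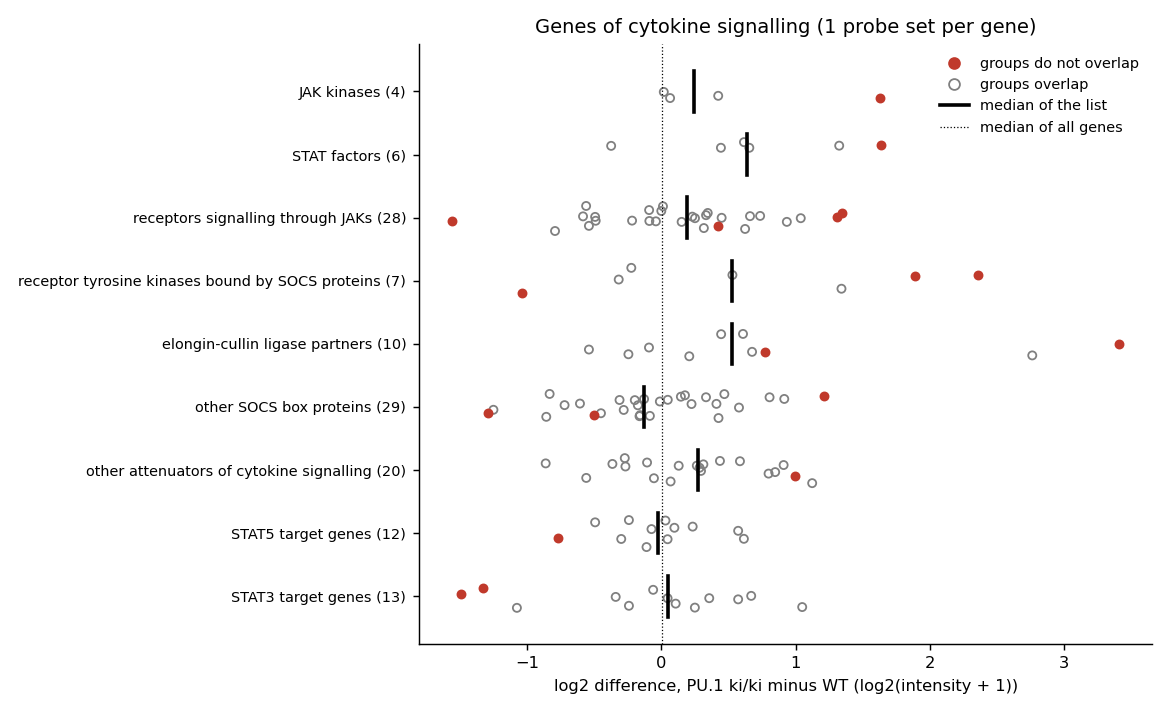
Log2 difference (PU.1 ki/ki minus WT) of each measured gene in 9 lists of cytokine signalling, 1 probe set per gene, with filled points where the 3 arrays of each group do not overlap and black bars for list medians. The number of genes measured stands beside each list, vertical scatter within a list carries no information, and the list medians lie between -0.13 and 0.64.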

How the data were processed

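The values were the intensities of the authors' deposited table, 1 per probe set and array, processed with RMA according to the submitters' processing notes, which give no version. They are whole numbers from 10 to 27574, whose conversion from a log scale and minimum are not described. Of 45101 entries 64 control probe sets were left out. Platform annotation gave 1 symbol for 34945 probe sets, several for 932 (left unnamed) and none for 9160. With limma 3.58.1 (R 4.3.3), log2(intensity + 1) was fitted on genotype over all 45037 probe sets, with Benjamini-Hochberg adjustment and a threshold of 0.05. No further normalization was applied. Members, lists and tests were chosen with earlier results of these data known.

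Named genes were all SOCS probe sets, the 2 higher and 2 lower members of each list with the lowest p (a part is named), members without overlap and with a difference over 1, a fixed panel (a part not analysed here), and the 3 most alike genes for Socs2 and Socs3. The 9 pathway lists held 133 entries, and 1 further pathway list is not reported here. Cul5, Elob, Eloc and Kit, for their role, and the cell type markers given with values were named outside that rule, after their values were seen. The number of arrays limits the precision. In simulated data at the observed spread, limma called 0 of 100 probe sets given a log2 change of 1 and 0 of 100 given a change of 2, among 45037, while 45 and 85 had an unadjusted p under 0.05. Same-numbered arrays were not treated as paired in the main fit, since the labels give no batch. The correlations of their deviations from group means were -0.02 to 0.02, which with 3 arrays per group does not settle whether they belong together. Alternatives were further quantile normalization, median centring, a pseudocount of 16, leaving out dim probe sets, other variance settings, array weights, the replicate block, single arrays left out and WT replicate 1 alone. Protein identity between members was not analysed here. Figures used matplotlib 3.10.9.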

Additional observations from a re-analysis of the deposited data

How the results depend on the processing

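Socs2 1449109_at kept its sign in the 12 alternatives run, at 3.23 to 3.88 with single arrays left out and 4.23 against WT replicate 1 alone. Socs3 1456212_x_at did too, at -3.78 to -1.90 and -5.51. The groups did not overlap on either probe set, so leaving out arrays could not turn these signs. The replicate block and the removal of dim probe sets leave a difference unchanged. The kept sign is thus no support, and the values show only how far the size moved. Of the 24 SOCS probe sets, 14 kept their sign in all alternatives run and 10 turned in some. The cause was not tested. Of the family, 15 probe sets were higher, 12 to 16 with single arrays left out and 10 of the 19 kept without dim probe sets. The count of probe sets that passed over the whole table was 0 in every alternative run, and 0 of the pathway genes passed in any. The probe sets with an unadjusted p under 0.05 numbered 3731, 1704 with dim ones left out, where fewer were tested, and 2535 to 7183 with single arrays left out. These split into 2072 higher and 1659 lower, but 1558 and 2243 after further quantile normalization, and 1593 and 2130 after median centring. Centring put the median difference over the table at -0.11. With the replicate block, 3369 had an unadjusted p under 0.05 and 0 passed. The labels give no batch, so whether the replicate number pairs the arrays is not known. With the palindrome TTCCNGGAA in place of TTCNNNGAA, 0 of 4 promoter windows matched, against 0.913% of all. WT replicate 1 alone leaves 1 WT array, assumed to vary like the others. Signal near the minimum of 10 limits what can be said of the 3 Socs3 probe sets, each with a PU.1 ki/ki array under 20, and of the 5 SOCS probe sets with a mean under 50 (4 of Socs2 and 1 of Socs6).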
